A study of Homo sapiens with 10 samples.

Results

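The expression of 10 imprinted growth genes and imprinted noncoding RNAs was followed in NKX2-1 GFP+ cells sorted from thyroid organoids that were differentiated from human embryonic stem cells. The members were taken by symbol from a fixed list: the noncoding RNAs H19, MEG3 and KCNQ1OT1, and the protein-coding genes DLK1, PEG3, PEG10, MEST, CDKN1C, GRB10 and NNAT. All 10 were found among the 28265 gene symbols of the count tables. PEG3 had no count in any library, so 9 of the 10 passed the filter on low values, at least 5 counts in at least 2 libraries, which 21014 genes passed in all.

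Bulk RNA-seq was available for 10 libraries, 2 at each of days 16, 23, 31, 38 and 45. Every library came from the same engineered stem cell line, HES3-derived cells with GFP at 1 NKX2-1 allele and a doxycycline-inducible NKX2-1 and PAX8 transgene that was switched on for a few days early in the protocol, and selected clones of that line were used. Cells of days 16, 23 and 31 carry the label c-AMP, those of day 38 the label TSH DEX, for thyrotropin and dexamethasone, and those of day 45 the label TSH SB, for thyrotropin and the TGF-beta receptor inhibitor SB431542. By the study's methods the medium held no cAMP analogue until day 16, and dexamethasone was still present on day 45. By label, days 16, 23 and 31 share a medium. By the methods, the change from the cAMP analogue to thyrotropin and dexamethasone came shortly before day 31, so that sources differ on the medium of that day. Effects of day and of medium cannot be told apart in any step that a change of medium falls into by either source. Wells were pooled before sorting, so that the p-values measure the spread between 2 pooled samples of 1 line. The libraries held 7247268 to 10333933 counts, and a count of 3, taken here as the floor of detection, corresponded to 0.307 to 0.435 CPM, counts scaled to library size. All CPM values are scaled with the TMM factors of edgeR.

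Imprinted genes are expressed mainly from the copy inherited from 1 parent, following DNA methylation of control regions laid down in the germ line. They tend to sit in clusters in which a control region methylated on a single parental copy sets the expression of several neighbours, often together with a long noncoding RNA. Many paternally expressed members favour fetal growth and many maternally expressed members restrain it, and several are abundant in fetal tissues and fall silent after birth. The counts carry no allele information, so nothing here says which parental copy was read, and imprinting itself was not measured.

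H19 is the host of a microRNA hairpin, and MEST of another, which lets the RNA be seen at sequence level. The mature forms in RefSeq (GRCh38.p14) are shown because they are the processed products of 2 members. The capitals mark the seed, bases 2 to 8, and none of the 4 seeds is shared. Mature microRNAs were not measured here, and the gene counts refer to the host RNAs.
miR-675-5p: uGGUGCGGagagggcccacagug
miR-675-3p: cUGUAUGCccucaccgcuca
miR-335-5p: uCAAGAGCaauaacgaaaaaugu
miR-335-3p: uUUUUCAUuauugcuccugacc

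Promoters of 300 bases, from 250 before to 50 after a start, were held for 4 of the 10 members in the RefSeq table (GRCh38.p14). Those of H19 and of the most upstream of the 3 MEG3 starts in that table are shown because H19 rose and MEG3 stayed low in these cells, with CG dinucleotides, the bases that can carry methylation, in capitals. The H19 window is chr11:2001217-2001516 on the minus strand and the MEG3 window is chr14:100825858-100826157 on the plus strand. Both lie inside the gene intervals of the GENCODE annotation given further on, which begin further upstream. Any other starts of these genes, upstream or downstream of the windows, are not shown. Which starts were used in these cells was not measured.
H19: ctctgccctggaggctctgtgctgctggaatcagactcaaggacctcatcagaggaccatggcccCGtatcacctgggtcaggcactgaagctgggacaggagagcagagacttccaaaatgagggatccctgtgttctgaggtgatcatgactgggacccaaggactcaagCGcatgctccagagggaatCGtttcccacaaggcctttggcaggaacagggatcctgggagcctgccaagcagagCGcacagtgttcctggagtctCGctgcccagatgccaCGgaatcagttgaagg
MEG3: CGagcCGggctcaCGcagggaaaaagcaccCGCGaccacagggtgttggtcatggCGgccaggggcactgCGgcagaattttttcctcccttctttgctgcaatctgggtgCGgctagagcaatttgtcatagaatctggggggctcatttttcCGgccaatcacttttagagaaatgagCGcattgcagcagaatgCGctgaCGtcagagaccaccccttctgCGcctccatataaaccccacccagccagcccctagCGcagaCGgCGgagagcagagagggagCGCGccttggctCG
The H19 window holds 6 CG dinucleotides and the MEG3 window 19, against a median of 14 over 35116 promoters. The letters TGCCGC, the motif of the imprint-protecting factor ZFP57, were searched on both strands and overlap a CG by construction. They occur once in the MEG3 window, not in the H19 window, and in 16.7% of all promoters. TATAAA also occurs once in the MEG3 window and in 11.5% of all promoters, and the core letters GGNGGCAG of the CTCF motif occur in neither window and in 16.7% of all. The 5 MEST windows hold 13 to 25 CG and the 5 GRB10 windows 3 to 49. No methylation was measured.

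The sorted cells carried the thyroid transcription factors at every day, with PAX8 at 477 to 727 CPM and NKX2-1 at 58.1 to 157 CPM. TG, the thyroglobulin precursor of thyroid hormone, stood at 10.6 and 11.7 CPM on day 16 and at 7961 and 7523 CPM on day 45. Markers of other cell types were present as well. COL3A1, a fibrillar collagen of fibroblasts, went from 309 and 509 CPM on day 16 to 2144 and 1677 CPM on day 45, and the summed fibroblast markers from 2622 and 2995 CPM to 6235 and 5702 CPM. Cells of another type within the gate, fewer cells of a type and less RNA per cell cannot be told apart in bulk samples.

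**Figure D1:**
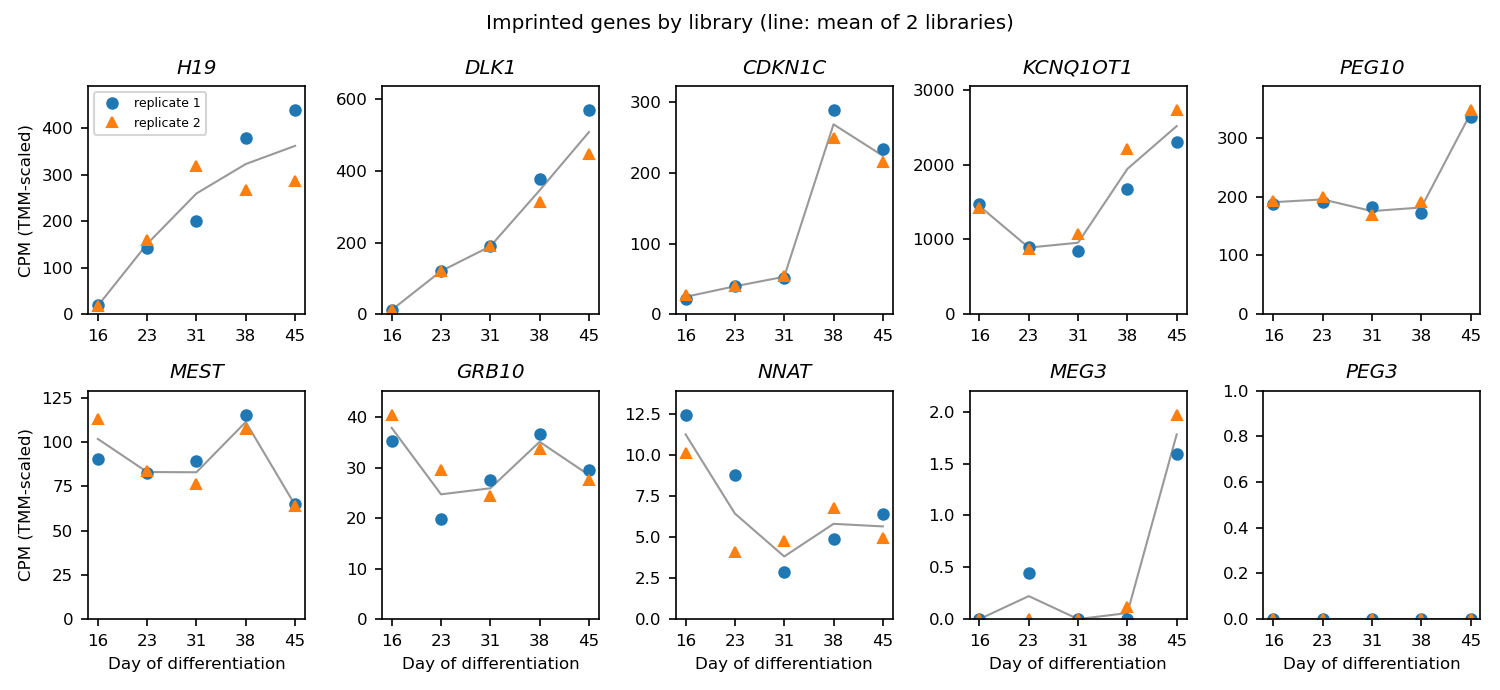
CPM (TMM-scaled, linear axes from 0) of the 10 members against day of differentiation, with 1 point per library and a line through the mean of the 2 libraries. H19 and DLK1 climbed from day 16 on, CDKN1C stepped up between days 31 and 38, KCNQ1OT1 dipped on days 23 and 31, PEG10 stood apart on day 45 only, and PEG3 had no count.

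Of the 9 members tested, 6 differed between days by the edgeR test over the 5 day means, H19, DLK1, CDKN1C, KCNQ1OT1, PEG10 and MEST, where 36.3% of all tested genes did. Between days 16 and 45, 5 members were higher and 1 lower (MEST), against 24.6% of all genes called, 12.9% higher and 11.7% lower. The median log2 fold change of the 9 was 0.84, beside 0.00 over all genes tested. Between days 16 and 23, 3 members were higher and 1 lower, where 10.9% of all genes were called, 5.60% higher and 5.33% lower. From day 23 to day 31, 2 were higher and 0 lower, against 2.25% of all genes, 1.58% higher and 0.666% lower. From day 31 to day 38, 3 were higher and 0 lower, against 15.0%, 8.80% higher and 6.23% lower. From day 38 to day 45, 3 were higher and 1 lower, against 11.2%, 4.85% higher and 6.35% lower. Comparisons of consecutive days share a day, so these counts do not stand apart from each other.

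**Figure D2:**
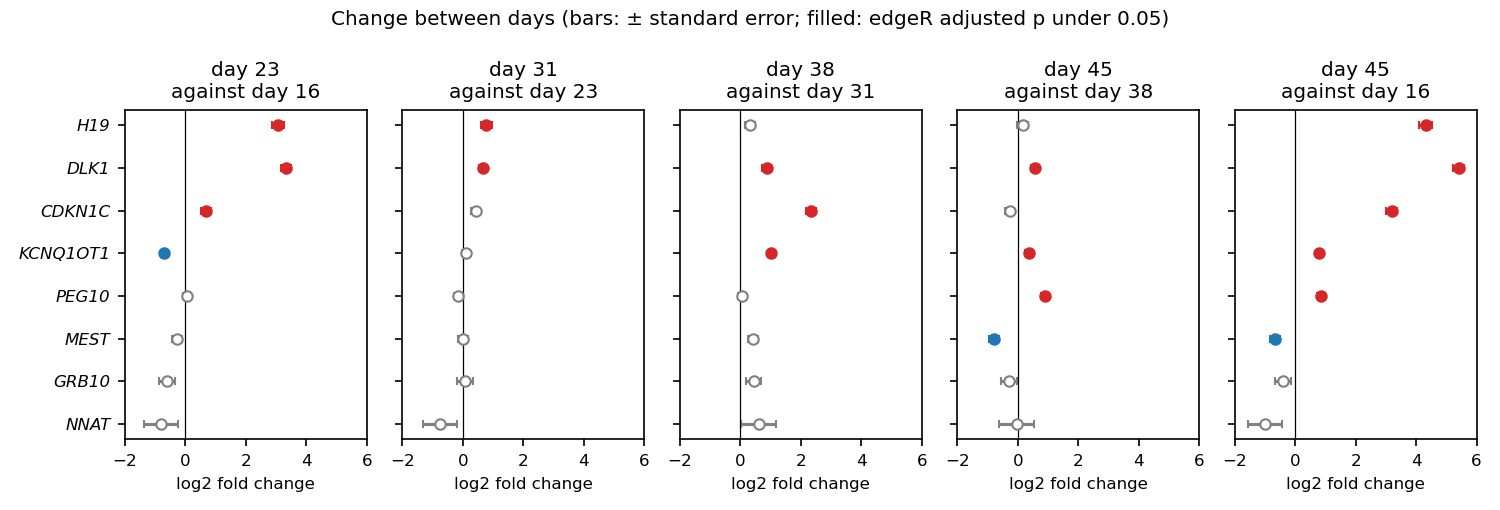
log2 fold change (horizontal axis) of 8 members in the 5 comparisons of days, with bars of ± 1 standard error and filled symbols where the edgeR adjusted p was under 0.05 (red higher, blue lower). MEG3 and PEG3 are left out because their counts were at or near 0. Between consecutive days the largest shifts were those of DLK1 and H19 between days 16 and 23 and that of CDKN1C between days 31 and 38.

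H19, a long noncoding RNA transcribed from the maternal copy next to IGF2 and abundant in fetal endoderm and mesoderm, rose most between days 16 and 23. It lies at chr11:1995166-2004552 on the minus strand (GRCh38, GENCODE 44). Its level was 18.9 and 17.5 CPM on day 16 and 142.8 and 159.8 CPM on day 23, followed by 201.6 and 317.9 CPM on day 31. On day 38 it was 378.8 and 267.4 CPM, and on day 45 438.3 and 286.1 CPM. The day 16 libraries lie below all others, and those of days 31, 38 and 45 overlap. The rise from day 16 to day 23 was 8.32-fold (log2 fold change 3.06, SE 0.21, edgeR adjusted p = 4.36e-13), and day 45 stood 19.9-fold above day 16 (log2 fold change 4.31, SE 0.22, edgeR adjusted p = 1.54e-17). The step from day 23 to day 31 passed the test (log2 fold change 0.78, SE 0.18, edgeR adjusted p = 0.011), but it did not without replicate 2 of day 31 (0.46), replicate 1 of day 23 (0.192) or replicate 2 of day 23 (0.0753), nor by DESeq2 (0.201). The steps from day 31 to day 38 (log2 fold change 0.32) and from day 38 to day 45 (0.16) were not called.

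IGF2, the paternally expressed fetal growth factor 124.559 kb from H19, followed the same order of days. It had 8 and 13 counts on day 16, 67 and 41 on day 23, 196 and 124 on day 31, 514 and 380 on day 38, and 752 and 812 on day 45. Its groups of libraries do not overlap, and it was called higher at every step, with a log2 fold change of 6.22 (SE 0.36, edgeR adjusted p = 8.54e-16) from day 16 to day 45. Its step to day 23 was not called when only those 2 days were fitted (edgeR adjusted p = 0.104). Its step to day 31 was lost in a fit of those 2 days alone (0.0968) and without replicate 2 of day 23 (0.0892) or replicate 1 of day 31 (0.0889), and its step to day 45 without replicate 2 of day 38 (0.188) or replicate 1 of day 45 (0.135). Per kb of exon, H19 was above IGF2 in every library. The ratio was 38.4 and 22.5 on day 16, 39.7 and 70.4 on day 23, and 20.7 and 45.5 on day 31. It was 14.1 and 12.5 on day 38 and 8.29 and 6.66 on day 45. The readthrough gene INS-IGF2 shares exons with IGF2, of whose exon bases 56.8% belong to IGF2 alone, so the IGF2 level is uncertain.

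DLK1, a membrane ligand related to the Notch ligands that marks fetal progenitors and restrains fat cell differentiation, showed the largest called change of the members over the series. It lies at chr14:100725705-100738224 on the plus strand and shares no exon base with another gene. Its level was 12.0 and 11.9 CPM on day 16, 119.8 and 121.1 CPM on day 23, 189.4 and 190.1 CPM on day 31, 378.7 and 313.7 CPM on day 38, and 569.2 and 448.5 CPM on day 45. The 5 days do not overlap and rise in order. The gain was 42.4-fold from day 16 to day 45 (log2 fold change 5.41, SE 0.17, edgeR adjusted p = 7.26e-23). By step it was 3.33 on the log2 scale to day 23, 0.66 to day 31, 0.87 to day 38 and 0.56 to day 45, each called in edgeR (adjusted p = 1.48e-16, 0.0043, 1.24e-05 and 0.00461). The step to day 31 was lost without any single library of days 23 and 31 (adjusted p = 0.0575 to 0.0785), and the step to day 45 without replicate 2 of day 38 (0.188) or replicate 1 of day 45 (0.174).

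MEG3, the maternally expressed noncoding RNA 41.185 kb beyond DLK1 in the same imprinted cluster, was at or near 0 counts until day 38 and low on day 45. It lies at chr14:100779410-100861031 on the plus strand. It had 0 counts in both day 16 libraries, 4 and 0 counts on day 23, 0 in both on day 31, 0 and 1 on day 38, and 11 and 18 counts on day 45, or 1.60 and 1.97 CPM. With the floor of 3 counts per library in place of the 0 of day 16, the day 45 mean was at least 4.75-fold higher than on day 16. Against the single count of day 38 the ratio of pooled counts was 32.3, with an exact 95% interval of 5.35 to 1318 that covers counting error only and not the spread between libraries, and against the floor on that day it was 5.29. In the fit of all days, day 45 was not called (edgeR adjusted p = 0.128 against day 16 and 0.341 against day 38). The edgeR test over the day means did not call MEG3 either (adjusted p = 0.124). A fit of days 16 and 45 alone gave an edgeR adjusted p of 0.0448. MEG3 passed the filter on low values only through its day 45 libraries, as no other library held over 4 counts. A high day 45 was thus built into these tests, and the interval above makes no allowance for it. So DLK1 rose 42.4-fold at a locus where MEG3 had 0 to 18 counts per library, at total counts of 7247268 or more.

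RTL1, a retrotransposon-derived gene that is expressed from the paternal copy like DLK1 and lies 18.721 kb beyond MEG3, had 0 and 8 counts on day 16, 35 and 65 on day 23, 107 and 47 on day 31, 143 and 166 on day 38, and 67 and 56 on day 45. It was called higher on day 23 (log2 fold change 3.47, edgeR adjusted p = 0.0015) and on day 45 (3.95, edgeR adjusted p = 9.99e-05) against day 16, though not on day 23 when those 2 days alone were fitted (0.0601). Without replicate 1 of day 16 the 2 values were 2.52 and 2.97, and without replicate 2 of day 16 the remaining library is at 0 counts, so no fold is given. Its antisense transcripts share exon bases with it, and only 67.2% of its exon bases are free of another gene if strand was ignored. The noncoding RNA MEG8, further along the cluster, had 0 counts on day 16 and 3 to 22 counts in the other libraries and was not called.

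CDKN1C, which encodes the cyclin-dependent kinase inhibitor p57 and is expressed from the maternal copy, rose mainly between days 31 and 38. It lies at chr11:2883213-2885775 on the minus strand. It had 21.4 and 27.8 CPM on day 16, 39.7 and 39.5 CPM on day 23, and 51.5 and 54.6 CPM on day 31. On day 38 it stood at 288.5 and 249.2 CPM and on day 45 at 233.5 and 215.2 CPM. All 4 libraries of days 38 and 45 lie above the 6 earlier ones. The step from day 31 to day 38 was 5.07-fold (log2 fold change 2.34, SE 0.16, edgeR adjusted p = 1.43e-13), that from day 38 to day 45 was not called (log2 fold change -0.26), and day 45 was 9.11-fold above day 16 (log2 fold change 3.19, edgeR adjusted p = 8.95e-17). The step between days 16 and 23 (log2 fold change 0.68, SE 0.17, edgeR adjusted p = 0.00478) was lost without replicate 1 of day 16 (0.06) and in a fit of those 2 days alone (0.124). Of the 50-base stretches in its exons, 88.2% also occur on alternate sequences of the reference build, so an alignment that included those could have set reads aside as repeated.

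Relatives of CDKN1C are the inhibitors CDKN1A, which encodes p21, and CDKN1B, which encodes p27. CDKN1A also rose from day 31 to day 38, from 21.5 and 24.4 CPM to 103 and 78.2 CPM (log2 fold change 1.98, edgeR adjusted p = 1.78e-08), and was 215 and 162 CPM on day 45. CDKN1B went the other way, from 63.6 and 57.5 CPM on day 16 to 33.1 and 18.0 CPM on day 45 (log2 fold change -1.25, edgeR adjusted p = 0.000103). CDK2, a kinase the 3 inhibitors bind, fell by 1.16 on the log2 scale between days 31 and 38 (edgeR adjusted p = 0.000704). Of the 6 proliferation markers, 1 was higher and 0 lower in that step, against 8.80% and 6.23% of all genes, and they summed to 435 and 390 CPM on day 31 and 512 and 490 CPM on day 38, then to 281 and 375 CPM on day 45.

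KCNQ1OT1 is a long noncoding RNA read from the paternal copy, antisense to KCNQ1, whose transcription accompanies silencing of the neighbouring genes, CDKN1C among them, on that copy. It covers chr11:2597308-2700003 on the minus strand, 183.209 kb from CDKN1C. It was the most abundant member by counts, between 0.0905% and 0.260% of each library. It stood at 1467 and 1424 CPM on day 16, 905 and 877 CPM on day 23, and 845 and 1066 CPM on day 31. On day 38 it was 1678 and 2207 CPM, and on day 45 2305 and 2723 CPM. The libraries of days 23 and 31 lie below all others. It fell by 0.70 on the log2 scale between days 16 and 23 (SE 0.12, edgeR adjusted p = 0.00011) and rose by 1.02 between days 31 and 38 (SE 0.12, edgeR adjusted p = 9.02e-08). The last step, to day 45 (log2 fold change 0.37, SE 0.12, edgeR adjusted p = 0.0418), was lost without replicate 1 of day 23 (0.0656), replicate 2 of day 23 (0.064), replicate 2 of day 31 (0.0572), replicate 1 of day 38 (0.588) or replicate 2 of day 45 (0.377).

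Per kb of exon, CDKN1C stood at 0.545 and 0.730 times KCNQ1OT1 on day 16, at 6.42 and 4.22 times on day 38, and at 3.78 and 2.95 times on day 45. So both rose between days 31 and 38, CDKN1C by more. KCNQ1, a potassium channel subunit whose introns contain KCNQ1OT1, had 23 and 24 counts on day 16, 18 and 4 on day 23, 1 and 0 on day 31, 141 and 121 on day 38, and 196 and 352 on day 45. It was called lower on day 31 (edgeR adjusted p = 0.0162), a call lost without replicate 1 of day 23 (0.422), replicate 1 of day 31 (0.112) or replicate 2 of day 31 (0.172) and by DESeq2 (0.0853). It was called higher on day 38 (edgeR adjusted p = 6.22e-09), where the ratio of pooled counts to the single count of day 31 was 270, with an exact 95% interval of 48.0 to 10688 that covers counting error only and not the spread between libraries. The strand setting of the counting is not given in the sources used here, and without strand the reads of KCNQ1OT1 and of unspliced KCNQ1 cannot be told apart. The share of the libraries taken by RN7SK, a small nuclear RNA, was 6.82% and 7.11% on day 16, 4.40% and 4.42% on day 23, 2.92% and 3.86% on day 31, 8.17% and 6.76% on day 38, and 7.04% and 5.14% on day 45, also with a low on days 23 and 31. With RN7SK left out of the scaling, the KCNQ1OT1 changes were -0.68 to day 23 and 1.01 to day 38, both still called in edgeR (adjusted p = 0.000116 and 7.9e-08). RN7SK was at most 8.17% of a library, so leaving it out could move these values only slightly. This says nothing about the low that the 2 RNAs share, whose cause was not tested.

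PHLDA2, a maternally expressed growth restrainer on the far side of CDKN1C, had 33 and 6 counts on day 16 and 122 and 156 on day 45 (log2 fold change 2.82, edgeR adjusted p = 0.00667), a call lost without replicate 2 of day 16 (0.102). When 1 library was left out, the log2 fold change ranged from 2.05 to 4.52. SLC22A18, a transporter gene between them, had 36 and 36 counts on day 16 and 102 and 82 on day 45 and was not called.

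PEG10, a retrotransposon-derived gene expressed from the paternal copy and needed in the placenta, was level until day 38 and higher on day 45. It lies at chr7:94656325-94669695 on the plus strand. Its 8 libraries of days 16 to 38 ranged from 169 to 199.6 CPM, and those of day 45 held 336 and 347 CPM. The day 45 libraries stand clear of the rest. The step from day 38 to day 45 was 1.88-fold (log2 fold change 0.91, SE 0.13, edgeR adjusted p = 3.8e-06). SGCE, the paternally expressed sarcoglycan gene that starts head to head with it, had 35.6 and 41.4 CPM on day 38 and 21.2 and 31.9 CPM on day 45 and was not called. The 2 genes share 219 exon bases on opposite strands, 3.27% of those of PEG10.

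MEST, an enzyme of the hydrolase fold expressed from the paternal copy in fetal mesoderm, was the only member called lower between days 16 and 45. It lies at chr7:130486171-130506465 on the plus strand. It had 90.5 and 113 CPM on day 16, 82.7 and 83.4 CPM on day 23, 89.3 and 76.5 CPM on day 31, 115 and 108 CPM on day 38, and 64.9 and 63.9 CPM on day 45. The day 45 libraries are the lowest of the 10. Its step from day 31 to day 38 was not called (log2 fold change 0.42, edgeR adjusted p = 0.0811). That step was called in a fit of those 2 days alone (edgeR adjusted p = 0.0448). MEST fell by 0.79 on the log2 scale between days 38 and 45 (SE 0.17, edgeR adjusted p = 0.000999). Against day 16 it fell by 0.66 (SE 0.17, edgeR adjusted p = 0.00269), a call lost without replicate 2 of day 16 (0.0507). If strand was ignored, 72.4% of its exon bases are free of MESTIT1, COPG2 and another antisense gene, and 100% otherwise. COPG2, which overlaps its end, had 25.2 and 21.3 CPM on day 31 and 36.9 and 42.3 CPM on day 38 (log2 fold change 0.77, edgeR adjusted p = 0.0388), a call lost without any single library of those 2 days (0.0829 to 0.29), without TMM factors (0.155) and with upper-quartile factors (0.0562).

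GRB10, an adaptor that binds and restrains the insulin and IGF1 receptors and whose expressed copy depends on the tissue, lies at chr7:50590063-50793462 and was not called between any days. Its libraries ranged from 19.8 CPM on day 23 to 40.4 CPM on day 16, and its change from day 16 to day 45 was -0.41 on the log2 scale (SE 0.26, edgeR adjusted p = 0.278). Of its relatives, GRB14 fell by 4.39 on the log2 scale over the same interval (SE 0.26, edgeR adjusted p = 1.67e-15), from 121 and 138 CPM to 7.98 and 4.59 CPM. GRB7 had 158 and 91 counts on day 16 and 79 and 114 on day 45 and was not called over that interval. Between days 31 and 38 it was called lower in edgeR (log2 fold change -1.25), a call lost without any single library of those days. Its value there was -1.32 to -1.19 when a library was left out. The receptor genes were higher on day 23 than on day 16, IGF1R by 0.66 (edgeR adjusted p = 9.23e-05) and INSR by 0.48 (edgeR adjusted p = 0.0196), both as log2 changes. The INSR call was lost without replicate 2 of day 16 (0.0662), without replicate 1 of day 23 (0.205), and in a fit of those 2 days alone (0.0558). IGF1R later fell by 0.47 between days 31 and 38 (edgeR adjusted p = 0.00351), a call lost without replicate 2 of day 38 (0.0654), and stood at 384 and 381 CPM on day 16, 611 and 601 CPM on day 23 and 344 and 356 CPM on day 45.

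NNAT, a small proteolipid of the endoplasmic reticulum expressed from the paternal copy and best known in the developing brain, lies at chr20:37521206-37523690 within BLCAP. It was low, 12.4 and 10.1 CPM on day 16 and 2.87 to 8.75 CPM in the other libraries, and was not called between any days (edgeR adjusted p = 0.216 for day 45 against day 16). BLCAP, on the opposite strand, had 112 and 125 CPM on day 16 and 50.8 and 46.3 CPM on day 45, with a log2 difference of -1.29 (edgeR adjusted p = 1.93e-06). ATP2A2, a calcium pump of the same compartment, rose by 1.17 over the same days (edgeR adjusted p = 1.36e-09).

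PEG3, a zinc-finger gene of the paternal copy at chr19:56810077-56840728 on the minus strand, had 0 counts in all 10 libraries, as did its neighbour ZIM2. The floor of 3 counts per library allows PEG3 a level of up to 0.435 CPM in the shallowest library, for counting error only. The 2 genes share 1264 exon bases on the same strand, 12.9% of those of PEG3, and a noncoding RNA on the opposite strand shares 3824. Of the exon bases of PEG3, 87.1% are free of another gene if strand was used in counting and 49.1% if it was not.

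Ordered by level per kb of exon on day 45, the members ran from H19 (105, SD 31.1, n = 2) through DLK1 (97.0), CDKN1C (90.5), PEG10 (51.0), KCNQ1OT1 (27.1), MEST (13.5), NNAT (4.25) and GRB10 (2.91) to MEG3 (0.0767) and PEG3 at 0. H19, DLK1 and CDKN1C overlap in their libraries at that day. On day 16 the first place was held by PEG10 (28.5), followed by MEST (21.3), KCNQ1OT1 (15.6) and CDKN1C (9.93), while H19 stood at 5.25 and DLK1 at 2.29. The genes closest to each member in course over the 10 libraries, by the root mean square of the differences between their centred log2 levels among 10891 genes that reached 10 CPM, were DLK1 (0.44) and TSHR (0.51) for H19, H19 and CEBPD (0.46) for DLK1, IFITM1 (0.21) and ADGRG1 (0.23) for CDKN1C, SCARB1 (0.12) and SRR (0.18) for KCNQ1OT1, TOMM70 (0.11) and SIRT1 (0.11) for PEG10, and LUC7L (0.087) and STON2 (0.094) for MEST.

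Of 20 other genes listed as read from the paternal copy in at least some tissues, 18 were tested. Of these, 8 differed between days, where 36.3% of all tested genes did. Between days 16 and 45, 4 were higher (IGF2, RTL1, PLAGL1 and HYMAI) and 4 lower (SNHG14, SNRPN, NAP1L5 and L3MBTL1), against 12.9% higher and 11.7% lower over all genes, with a median log2 fold change of -0.18 beside 0.00. PLAGL1, a zinc-finger growth regulator, had 81.9 and 87.3 CPM on day 16 and 168 and 149 CPM on day 45 (log2 fold change 0.91, edgeR adjusted p = 1.14e-05), and HYMAI, a noncoding RNA within it, rose by 1.41 (edgeR adjusted p = 0.00616). SNHG14, the long host transcript of small nucleolar RNAs in the Prader-Willi region of chromosome 15, fell from 630 and 674 CPM to 211 and 250 CPM (log2 fold change -1.50, edgeR adjusted p = 2.32e-11). SNRPN, at the same locus, fell by 1.44 (edgeR adjusted p = 0.00641), a call lost without replicate 1 of day 16 (0.126) or replicate 1 of day 45 (0.129) and a value of -2.17 to -0.98 when 1 library was left out, whereas NDN, at 34.2 and 51.7 CPM on day 16 and 40.2 and 43.3 CPM on day 45, was not called. The call of NAP1L5 was lost without either library of day 16 (0.0588 and 0.0748) or replicate 2 of day 45 (0.192), and that of L3MBTL1 without replicate 1 of day 16 (0.129) or either library of day 45 (0.0888 and 0.0728). In single steps, ZDBF2 fell by 0.55 between days 16 and 23 (edgeR adjusted p = 0.00189), a call lost without replicate 2 of day 23 (0.0697), and INPP5F rose by 0.59 between days 31 and 38 (edgeR adjusted p = 0.00437), a call lost without replicate 1 of day 31 (0.101) and without TMM factors (0.0822).

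Of 14 other genes listed as read from the maternal copy in at least some tissues, 13 were tested and 5 differed between days. That share is near the 36.3% of all tested genes. Between days 16 and 45, 4 were higher (TFPI2, CPA4, KCNQ1 and PHLDA2) and 1 lower (PPP1R9A), against 12.9% and 11.7% of all genes. The median log2 fold change was 1.11, beside 0.00 over all genes tested. The genes behind this median include some near the floor of detection. MEG9 had 0 and 2 counts on day 16 and 0 and 5 on day 45. TFPI2, a protease inhibitor in the PEG10 cluster, had 1 and 11 counts on day 16 and 293 and 321 on day 45 (log2 fold change 5.67, edgeR adjusted p = 6.52e-11), with 4.81 without replicate 1 and 8.10 without replicate 2 of day 16. CPA4, a carboxypeptidase near MEST, had 0 and 10 counts on day 16 and 46 and 120 on day 45 (edgeR adjusted p = 0.0116), a call lost without replicate 1 of day 16 (0.108) or replicate 2 of day 45 (0.181). PPP1R9A fell by 0.39 (edgeR adjusted p = 0.0374), a call lost in a fit of those 2 days (0.104), without replicate 1 of day 16 (0.099), either library of day 38 (0.0508 and 0.051) or either of day 45 (0.0791 and 0.174). UBE3A, the ubiquitin ligase of the chromosome 15 region, ranged from 211 to 326 CPM and was not called.

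**Figure D3:**
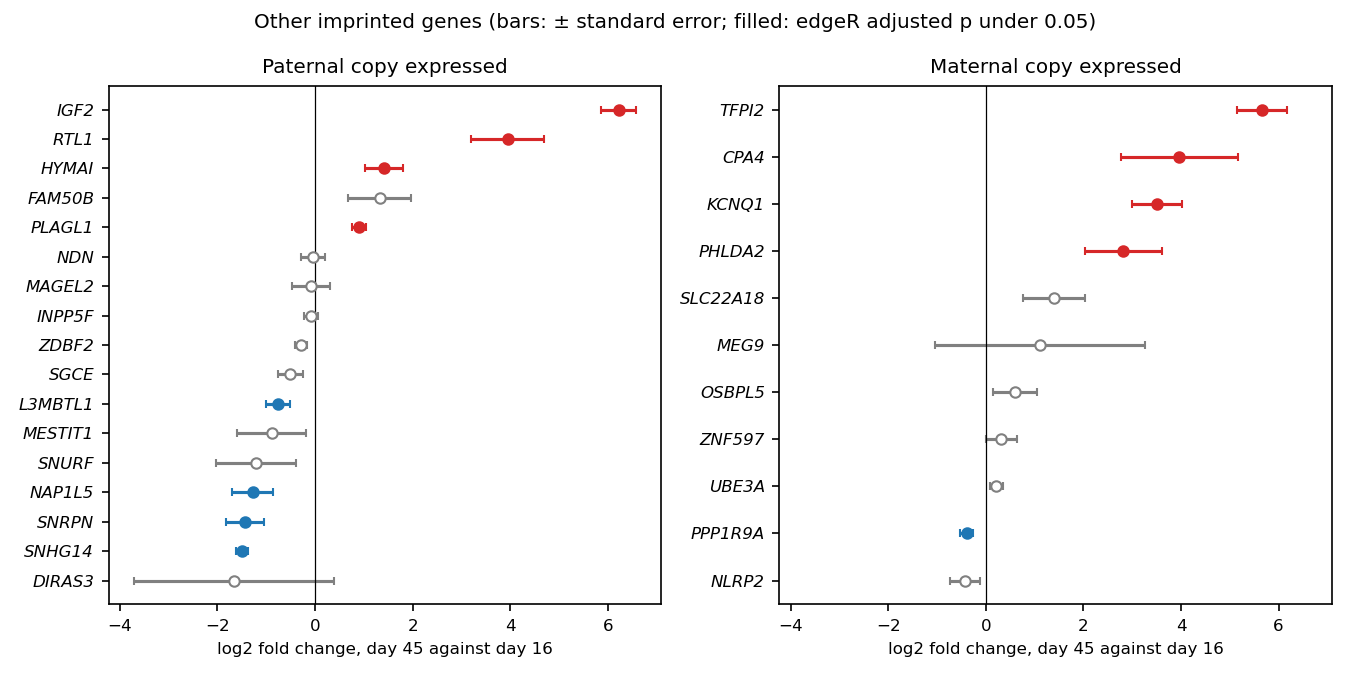
log2 fold change from day 16 to day 45 of other imprinted genes, 17 listed as read from the paternal copy and 11 from the maternal copy. Bars are ± 1 standard error, and symbols are filled where the edgeR adjusted p was under 0.05 (red higher, blue lower). Tested genes with 0 counts in both day 16 libraries, or at most 3 counts in all 4 libraries, are left out. IGF2 and TFPI2 show the largest gains, and SNHG14 is the lowest of those called.

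Of 14 genes that keep or erase imprints, 12 were tested, with 0 higher and 4 lower on day 45 than on day 16, against 12.9% higher and 11.7% lower over all genes. The 4 were DNMT3B (log2 fold change -1.40, edgeR adjusted p = 0.000725), a de novo methyltransferase, DNMT3A (-0.47), TET1 (-0.54), an enzyme that oxidises methylcytosine, and TRIM28 (-0.39), the partner through which ZFP57 acts. The DNMT3A call was lost without replicate 2 of day 45 (0.142) and in a fit of those 2 days alone (0.0618). The TRIM28 call held without replicate 2 of day 16 or replicate 1 of day 45 and was lost without each of the other 8 libraries (0.0511 to 0.457), in a fit of those 2 days alone (0.13) and by DESeq2 (0.0552). TET1 was not in steady decline: it stood at 210 and 212 CPM on day 31, 402 and 441 CPM on day 38 and 215 and 251 CPM on day 45, with log2 fold changes of 1.00 (edgeR adjusted p = 2.27e-07) and -0.86 (edgeR adjusted p = 6.53e-06). By step, 2 of the 12 were called higher and 1 lower between days 16 and 23 (5.60% and 5.33% of all genes), 0 were called to day 31 (1.58% and 0.666%), 2 were higher and 3 lower between days 31 and 38 (8.80% and 6.23%), and 0 were higher and 3 lower to day 45 (4.85% and 6.35%). The lower call between days 16 and 23 was TET1 (log2 fold change -0.41, edgeR adjusted p = 0.0265), lost without TMM factors (0.0543), in a fit of those 2 days alone (0.06) and without replicate 2 of day 16 (0.0855) or either library of day 23 (0.0991 and 0.215). TET3, a relative of TET1, rose by 0.77 between days 16 and 23 (edgeR adjusted p = 0.000636) and fell by 0.76 between days 31 and 38 (edgeR adjusted p = 0.000523). DNMT3A rose by 0.50 between days 16 and 23 (edgeR adjusted p = 0.0156), a call lost without replicate 2 of day 16 (0.075) or replicate 2 of day 23 (0.275), before it came down to 119 and 104 CPM on day 45. Its last step (log2 fold change -0.45 between days 38 and 45, edgeR adjusted p = 0.0337) was lost without either library of day 38 (0.234 and 0.117), replicate 2 of day 45 (0.258), without TMM factors (0.0713) and with upper-quartile factors (0.0742). TET2 rose by 0.49 between days 31 and 38 (edgeR adjusted p = 0.0128) and fell by 0.61 to day 45 (edgeR adjusted p = 0.00295). The TET2 rise was lost without any single library of days 31 and 38 (0.056 to 0.124) and without TMM factors (0.202), and the fall without replicate 1 of day 45 (0.131).

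ZFP57 had 1 count in 1 of the 10 libraries and DPPA3 had 0 in all. DNMT1, the maintenance methyltransferase, fell by 0.66 between days 31 and 38 (edgeR adjusted p = 0.00562), a call lost without replicate 1 of day 31 (0.0548), replicate 1 of day 38 (0.0552) or replicate 2 of day 38 (0.0712). UHRF1, its partner, fell by 1.46 in the same step (edgeR adjusted p = 0.0457), a call lost without replicate 1 of day 31 (0.11), replicate 2 of day 31 (0.191) or replicate 1 of day 38 (0.503), with values from -2.44 to -0.88 when 1 library was left out.

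Markers of cell types and states also changed between days, not always in the direction of the members. Of 9 fibroblast markers, 5 were higher and 1 lower between days 31 and 38, the step of CDKN1C and KCNQ1OT1, where 8.80% of all genes were higher and 6.23% lower, and their sum went from 2133 and 2436 CPM to 6560 and 6546 CPM, led by VIM and COL3A1. In that step the 11 thyroid markers, 6 of them higher and 0 lower, went from 1852 and 1825 CPM to 8287 and 7476 CPM, led by TG. Between days 16 and 23, where H19 and DLK1 changed most, the fibroblast sum went from 2622 and 2995 CPM to 2351 and 2366 CPM, with 3 markers higher and 2 lower, where 5.60% of all genes were higher and 5.33% lower. VIM, an intermediate filament shared by many cell types, fell in that step from 1710 and 1871 CPM to 662 and 684 CPM. COL1A2, a fibroblast collagen, went down as well, from 254 and 283 CPM to 220 and 178 CPM. By contrast COL3A1 rose to 957 and 953 CPM, LUM from 43.0 and 60.7 CPM to 179 and 157 CPM, and DCN from 2.28 and 9.48 CPM to 28.8 and 34.1 CPM (edgeR adjusted p = 2.27e-07, 1.11e-08 and 8.79e-07). The last 2 encode proteoglycans of the fibroblast matrix. In the same step the thyroid sum went from 1904 and 1504 CPM to 1897 and 1837 CPM, with 6 higher and 3 lower. Between days 38 and 45, the step of PEG10 and MEST, 4.85% of all genes were higher and 6.35% lower. Of the fibroblast markers 3 were higher and 0 lower, while their sum went from 6560 and 6546 CPM to 6235 and 5702 CPM. Of the thyroid markers 2 were higher and 3 lower, and of the proliferation markers 0 and 2. The 4 hepatic markers, of a lineage in which H19, DLK1 and AFP are fetal products, summed to 7.61 and 11.7 CPM on day 16, 29.9 and 29.9 CPM on day 23, 158 and 135 CPM on day 31, 107 and 64.6 CPM on day 38, and 219 and 208 CPM on day 45. ALB, their defining gene, had 2 and 8 counts on day 16, 1 and 0 on day 23, 233 and 183 on day 31, 472 and 216 on day 38, and 820 and 877 on day 45. AFP, a fetal serum protein, had 23 and 62 counts on day 16, 64 and 119 on day 23, 702 and 431 on day 31, 462 and 301 on day 38 and 668 and 897 on day 45. TTR, a thyroid hormone carrier, had 27 and 20 on day 16, 179 and 110 on day 23, 562 and 464 on day 31, 46 and 29 on day 38 and 4 and 90 on day 45, so the hepatic genes did not share 1 course. The 4 distal lung markers, of another NKX2-1 lineage that the GFP gate could hold, summed to 50.2 and 28.8 CPM on day 16, 211 and 204 CPM on day 23 and 608 and 624 CPM on day 31, then to 130.3 and 129 CPM on day 38 and 120.5 and 154 CPM on day 45. SFTPB, a surfactant protein, led them on days 23 and 31 and went from 3.55 and 1.48 CPM on day 16 to 165 and 149 CPM on day 23 (log2 fold change 5.96, SE 0.23, edgeR adjusted p = 9.46e-20) and from 499 and 502 CPM on day 31 to 6.59 and 8.61 CPM on day 38. Of the 4, 1 was higher and 0 lower between days 16 and 23, against 5.60% and 5.33% of all genes. SFTPA1 was at 0 counts in 6 libraries. The 6 airway markers summed to 25.0 to 32.6 CPM on days 16 and 23, 32.5 and 51.2 CPM on day 31, 60.4 and 48.4 CPM on day 38 and 82.6 and 56.3 CPM on day 45. KRT5, a keratin of basal cells, had 0 or 1 count in each library of days 16 and 23 and led the airway list on day 45 with 36.9 and 28.2 CPM. The 5 neuroendocrine markers summed to 1.27 and 2.83 CPM on day 16 and 30.3 and 18.2 CPM on day 45, led from day 31 on by CALCA, which encodes calcitonin, at 26.4 and 14.1 CPM on day 45. The 6 cardiomyocyte markers summed to 9.26 to 30.0 CPM up to day 31 and to 115 to 138 CPM after it, led by MYH6. MYOD1, which defines skeletal muscle, had 0 counts in all libraries, though DES reached 55.3 CPM on day 38. The 5 pluripotency markers fell in sum from 191 and 169 CPM to 11.6 and 15.4 CPM, with POU5F1 at 0 or 1 count in each library. The 7 neuronal or forebrain markers were led by MAP2. They summed to 81.9 and 69.4 CPM on day 16, 97.1 and 111 CPM on day 23, and 154 and 153 CPM on day 31. Their sum was 141 and 150 CPM on day 38 and 69.4 and 64.3 CPM on day 45. The 3 endothelial markers, led by KDR, summed to 10.0 to 36.3 CPM over the libraries. The part of these cell types in the results was not tested.

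**Figure D4:**
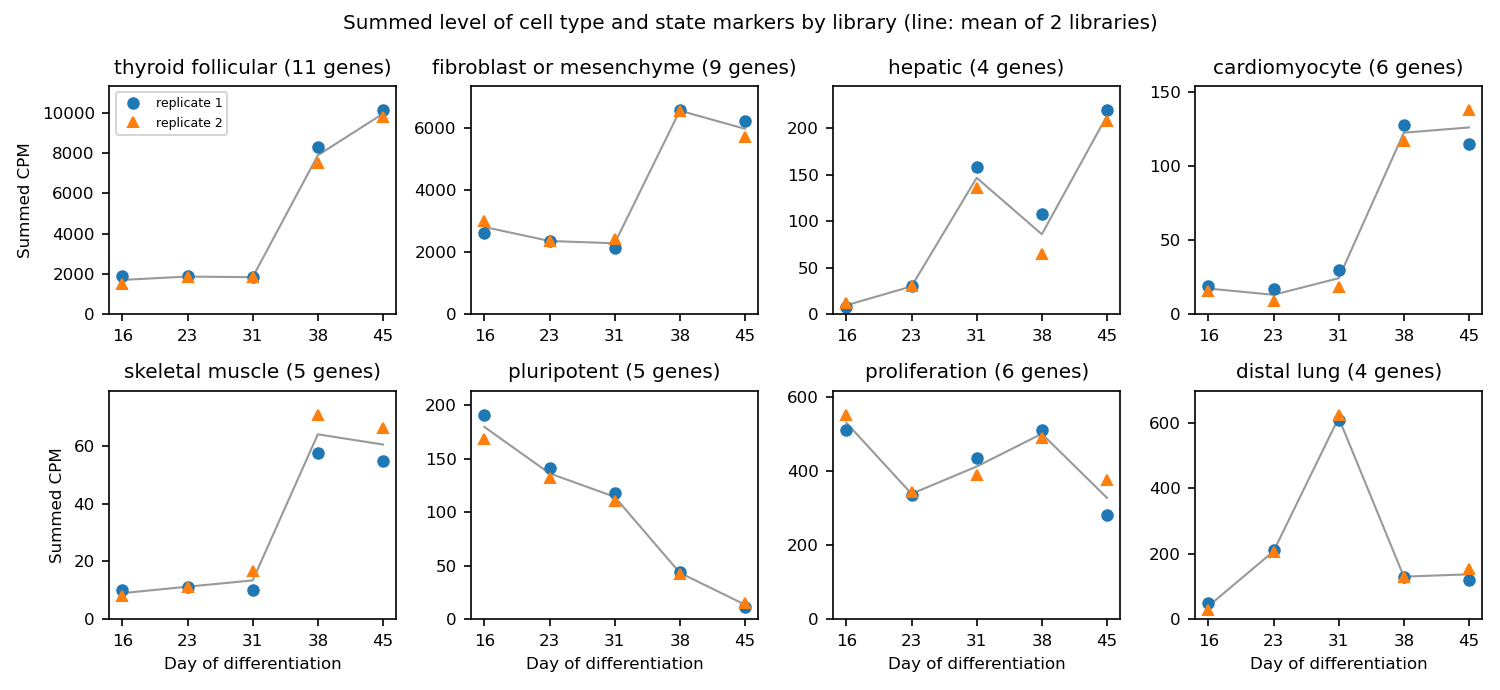
Summed TMM-scaled CPM of 8 marker lists against day (linear axes from 0), with 1 point per library and a line through the mean of the 2 libraries. The thyroid, fibroblast, cardiomyocyte and skeletal muscle sums are higher on days 38 and 45 than before, the hepatic sum is highest on day 45, the distal lung sum peaks on day 31, and the pluripotency sum declines.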

How the data were processed

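Reads of sorted NKX2-1 GFP+ cells were trimmed with Trimmomatic, aligned to GRCh38 with HISAT2 and counted per gene with HTSeq by the authors, who deposited raw counts per gene symbol for each of the 10 libraries, with no normalization. Versions, the strand setting and the treatment of alternate sequences are not given in the sources used here. Days were taken from the labels. All tests were run on the whole table in R 4.3.3 with edgeR 4.0.16 (quasi-likelihood, TMM factors, at least 5 counts in at least 2 libraries, 1 mean per day over all 10 libraries, 5 residual degrees of freedom). P-values were adjusted by Benjamini-Hochberg over the 21014 genes tested, with a threshold of 0.05. Fold changes are ratios of mean CPM, and log2 fold changes are fitted values. Positions and exon lengths come from GENCODE 44, with the exons of all transcripts of a gene joined. By the study's methods an Ensembl annotation of GRCh38 was used for counting, so the exons counted may differ. Levels per kb and ratios between genes depend on these lengths. The 2 libraries of a day differed by 8.38 to 13.7 times sampling noise (chi-square per degree of freedom), so none were merged. The scripts were tested on simulated counts. Alternatives were other normalizations, filters, a replicate block, DESeq2 1.42.0 and leaving out each library. Genes named are the members, genes of the fixed lists that were called in some comparison or adjoin a member, marker genes, and the 2 closest in course to each member called over all days. NDN, UBE3A, MEG9, ZFP57 and DPPA3, of the fixed lists, were named after their values were seen. Members and lists were chosen with earlier results of these data known.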

Additional observations from a re-analysis of the deposited data

How the results depend on the processing

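Several changes of members kept their call under every alternative run. They were H19, DLK1 and KCNQ1OT1 from day 16 to day 23, and CDKN1C, DLK1 and KCNQ1OT1 from day 31 to day 38. PEG10 and MEST from day 38 to day 45 did so, as did H19, DLK1, CDKN1C, KCNQ1OT1 and PEG10 from day 16 to day 45. Over all genes, leaving out 1 library gave 1350 to 2383 calls for day 23 against day 16 (2296 with all libraries), 206 to 646 for day 31 against day 23 (473), 1764 to 3613 for day 38 against day 31 (3160) and 1166 to 2815 for day 45 against day 38 (2353). For day 31 against day 23, members called went from 2 to between 0 and 2 when a library was left out and to 1 with DESeq2.
Fold changes that turned sign were all of steps that were not called. With library size in place of TMM factors they were PEG10 at day 38 against day 31 (-0.17), MEST at day 31 against day 23 (0.024) and NNAT at day 45 against day 38 (0.0050). With upper-quartile factors they were PEG10 at day 23 against day 16 (-0.00010) and at day 38 against day 31 (-0.0023), MEST (0.0042) and NNAT (0.017), and with DESeq2 MEST (0.00066) and NNAT (0.0022). When a library was left out, the log2 change ranged from -0.031 to 0.13 for PEG10 at day 38 against day 31, from -0.12 to 0.096 for MEST, -0.085 to 0.26 for KCNQ1OT1 and -0.19 to 0.39 for GRB10 at day 31 against day 23, and from -0.18 to 0.44 for H19 and -0.26 to 0.21 for NNAT at day 45 against day 38.
Without TMM factors the median of all genes moved to -0.20 at day 38 against day 31, where 33.3% of the calls were higher in place of 58.5%. Same-numbered libraries did not deviate together (0 of 10 pairs of days over 0.1, r from -0.032 to 0.020), so the numbers do not pair them. With the replicate block 5460 genes were called at day 45 against day 16, in place of 5175, and the number of members called stayed at 6. Depth limited what could be said of PEG3 on all days, of MEG3 up to day 38 and of KCNQ1 at day 31, each with at most 4 counts per library. The alternatives for genes other than the members were added after seeing the data.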
